A study of Mus musculus with 4 samples.

Results

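The untreated control library of a mouse podocyte line is described here on its own, gene by gene, with no contrast. It is the library labelled sh-NC, 1 of the 4 libraries of the series, and it was chosen by its label. Genes were ranked by CPM, a gene's share of the library's total count scaled to a total of 1000000. The line, MPC, is a conditionally immortalised podocyte line that grows at 33 °C in 10% serum with 20 U/ml interferon-gamma, and it was held for 7 days at 37 °C without interferon-gamma to differentiate. All 4 cultures share this history. The sh-NC cells carried a control hairpin and received no added glucose. The sh-NC/HG cells carried the same hairpin and were exposed to D-glucose at a final 40 mmol/L, for 24 h per the series' design text. The sh-JAML cells carried a hairpin against Jaml without added glucose, and the sh-JAML/HG cells carried it with the same glucose exposure. The labels name 1 cell line, no osmotic control and no glucose level for the medium of the sh-NC cells. The design text counts 4 treated and 4 untreated samples, and 4 libraries were analysed here.

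Podocytes are the visceral epithelial cells of the glomerulus. Their interdigitating foot processes are joined by the slit diaphragm, which is built on nephrin (Nphs1), and rest on a basement membrane of type IV collagen, laminin and agrin that they help to make. Adult podocytes keep mesenchymal features such as vimentin filaments, and depend on transcription factors such as WT1, LMX1B and TCF21. Conditionally immortalised lines of this kind carry a heat-sensitive viral large T antigen under the interferon-inducible promoter of the mouse class I gene H-2Kb, and lose the antigen's activity at the higher temperature.

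With 1 library a group there is no replicate, so no difference was tested and no p-value is given. The sh-NC library held a total of 80599238 count units, and the other 3 held 79330461 to 94341975. Low values piled up at multiples of 4, so 4 units were read as 1 sequenced fragment. On that reading 1 CPM is about 20.1 fragments in sh-NC, and the floor of 3 fragments is 0.149 CPM. Intervals given below are exact Poisson 95% intervals on fragments, and cover counting error only. A rank by CPM orders genes by their share of the count and favours long genes, so levels of different genes are compared as TPM, counts per base of exon scaled to a sum of 1000000, and CPM is used for ranks, for 1 gene across libraries and against the floor and 1 CPM. Where a value of sh-NC is followed by 3 others, these belong to sh-NC/HG, sh-JAML and sh-JAML/HG, in that order. Jaml, the target of the hairpin, was at 0 in all 4 libraries, so its level does not check the hairpin labels.

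Of the 21903 protein-coding genes in the table, 11613 (53.0%) were at or above 1 CPM in the sh-NC library, and 9608 were at or above 10 CPM. Another 6981 were at 0. Over all 56393 genes of the table, 13138 (23.3%) reached 1 CPM. The same level was reached in all 4 libraries by 11361 protein-coding genes. The median protein-coding gene stood at 2.77 CPM and 2.85 TPM. In bulk RNA a low level can come from few cells or from little RNA per cell, and these cannot be told apart.

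The count was spread over many genes. The highest gene held 0.499% of the sh-NC count, the 10 highest 2.94%, the 100 highest 13.4% and the 1000 highest 44.6%, and 1291 genes held 50% of it. Protein-coding genes took 97.0%, processed pseudogenes 0.777% and long intergenic noncoding RNAs 0.733%. Cytoplasmic ribosomal protein genes, which encode the small and large subunits, took 2.96% of the count and 6.28% of TPM, with 80 of 83 at or above 1 CPM. The actin cytoskeleton list took 2.78%, with 57 of 58 detected, translation factors 1.76% and chaperones 1.25%. The 37 genes of the mitochondrial chromosome took 1.99% of the count and 7.08% of TPM, against 1.37% to 2.18% of the count in the other 3 libraries.

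Matrix genes sat among the 10 highest genes by CPM. The mitochondrial cytochrome oxidase subunit mt-Co1 led at 4990 CPM, followed by the elongation factor Eef1a1 at 4013 CPM. Next came Thbs1, the matricellular protein thrombospondin, at 3529 CPM (interval 3503 to 3555). Fibronectin (Fn1) stood at 2546 CPM, the type IV collagen chains Col4a2 and Col4a1 at 2420 and 2371 CPM, and carboxypeptidase E (Cpe), which trims peptide hormones, at 2169 CPM. These 5 genes had their highest level of the 4 libraries in sh-NC. They were picked by their sh-NC level, which favours a peak there. The rest of the 10 highest (mt-Co1, Eef1a1, Eef2, mt-Cytb and mt-Nd1) were each highest in another library. In the other libraries Thbs1 read 1557, 2746 and 2209 CPM, Fn1 1358, 1999 and 2163 CPM, and Cpe 1235, 1952 and 1892 CPM. The order of these 5 genes differed from that of sh-NC in sh-NC/HG and sh-JAML, and was the same in sh-JAML/HG. No spread between cultures was measured.

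The rest of the 30 highest genes joined cytoskeleton, adhesion and antigen presentation. The basement membrane proteoglycan perlecan (Hspg2) stood at 1880 CPM, the calcium-binding protein S100a6 at 1807 CPM, the integrin chain Itgb1 at 1789 CPM and dystroglycan (Dag1), a laminin and agrin receptor, at 1713 CPM. The class I molecule H2-D1 read 1690 CPM and its light chain B2m 1590 CPM. Non-muscle myosin Myh9 read 1677 CPM, spectrin Sptan1 1530 CPM and filamin Flna 1515 CPM. The amyloid precursor gene App stood at 2059 CPM, the DNA damage-binding protein Ddb1 at 1710 CPM and pyruvate kinase Pkm at 1667 CPM. Of the 50 highest genes, 46 were among the 50 highest of sh-JAML, 46 among those of sh-JAML/HG and 38 among those of sh-NC/HG.

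**Figure D1:**
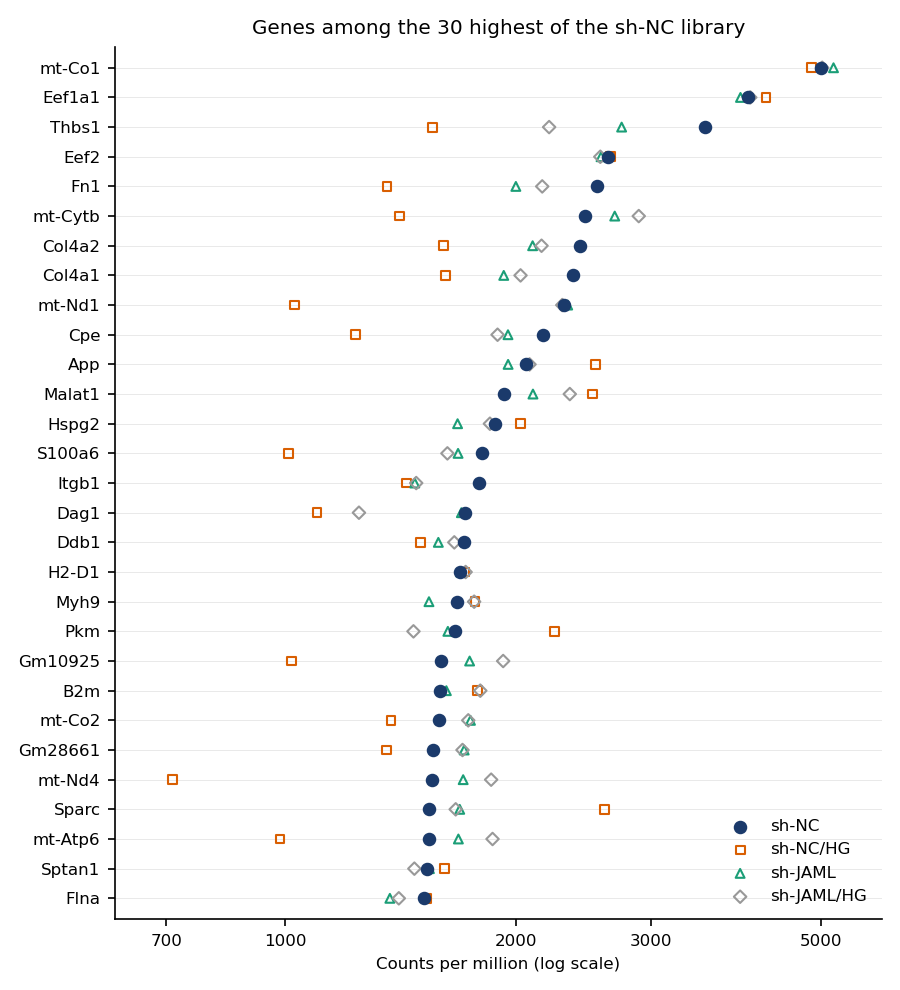
Genes among the 30 highest of the sh-NC library, with the level of each in all 4 libraries in CPM on a log scale; filled circles are sh-NC and open symbols the other libraries, 1 library each. mt-Co1 leads at 4990 CPM, and Thbs1 ranges from 1557 CPM in sh-NC/HG to 3529 CPM in sh-NC.

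Ranking by TPM moved short genes up. The median exon length was 3292.5 bases over the 100 highest genes by CPM and 1256 bases over the 100 highest by TPM, and 53 genes were in both. By TPM the highest nuclear protein-coding genes were B2m at 6232 TPM, Eef1a1 at 5427 TPM, S100a6 at 4456 TPM, S100a11 at 4300 TPM, the ribosomal stalk protein Rplp1 at 3500 TPM and galectin Lgals1 at 3273 TPM. Thbs1 fell from rank 3 by CPM to rank 44 by TPM, and Fn1 from rank 5 to rank 162.

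Several highly ranked entries were copies. A stretch of chromosome 1 (mm10) holds unprocessed pseudogenes that match mitochondrial genes. Gm10925 (chromosome 1, 24613974 to 24614651) was identical to mt-Atp6 over 678 aligned bases and read 1599 CPM beside 1540 CPM for mt-Atp6. Gm28661 (24614885 to 24615565) was identical to mt-Co2 over 681 bases and read 1558 CPM beside 1587 CPM. Gm28437 (24613189 to 24613971) was identical to mt-Co3 over 783 bases and read 1261 CPM beside 1271 CPM for mt-Co3. Fragments from identical bases cannot be assigned to 1 copy, so the levels of these pseudogenes and of the mitochondrial genes they match are uncertain. The share of the mitochondrial chromosome given above is uncertain for the same reason. Tubulins, Actb and Actg1, and the class I genes of the H2-Q group also belong to families of similar sequence, and their identity was not measured here. Outside these copies, the highest noncoding RNAs by CPM were the nuclear RNA Malat1 at 1930 CPM and AY036118 at 1299 CPM. All exon bases of AY036118 (100%) are shared with another gene, and it lies within the ribosomal RNA gene CT010467.1, so its level is uncertain.

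Class I antigen presentation was among the highest surface functions. H2-D1 read 2209 TPM and H2-K1 1564 TPM, and in CPM they read 1694 to 1719 and 1399 to 1430 in the other 3 libraries. The receptor chains for interferon-gamma, Ifngr1 and Ifngr2, stood at 137 and 78.9 TPM. H2-K1 is the gene whose b-haplotype promoter drives the large T antigen in such lines, so its promoter is shown beside that of H2-D1, although the labels do not describe the transgene of this line. The sequences are from RefSeq on GRCm38.p6, each read 5′ to 3′ on its gene's strand, with TATAAA and CCAAT on either strand in capitals.
H2-D1: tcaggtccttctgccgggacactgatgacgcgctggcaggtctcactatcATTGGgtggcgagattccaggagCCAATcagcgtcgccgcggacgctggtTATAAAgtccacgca
H2-K1: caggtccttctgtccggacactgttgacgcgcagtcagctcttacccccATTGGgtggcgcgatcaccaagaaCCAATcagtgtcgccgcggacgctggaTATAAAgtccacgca
The first lies at chr17:35262968-35263082 on the plus strand and the second at chr17:34000298-34000412 on the minus strand. Over 114 aligned bases, 98 (86.0%) were identical, and both hold the CCAAT box on either strand and then TATAAA, in the same order. TATAAA begins 26 bases before the annotated start of H2-D1 and 35 bases after that of H2-K1. In the 32851 promoter windows of the table, which run from 250 bases before to 50 after a start, 13.6% hold TATAAA on either strand and 37.4% hold CCAAT.

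Of the 91 nuclear genes among the 100 highest by CPM, 72 had promoter windows, 91 windows in all. TATAAA was in 20.9% of those windows, against 6.84% of the windows of protein-coding genes at or above 1 CPM and 23.0% of those at 0. The GC box GGGCGG, on either strand, was in 65.9%, 63.8% and 19.1% in the same order, and CCAAT in 45.1%, 38.3% and 38.5%. The AP-1 site TGANTCA was in 3.3%, 4.86% and 10.8%. Genes can have several overlapping windows, and a match is a description of the letters only.

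The glomerular basement membrane list was high almost throughout. Of its 15 genes 13 (86.7%) were at or above 1 CPM, against 53.0% of protein-coding genes, and the median was 336 TPM, against 2.85 TPM. The library's summed level was 13690 CPM, and 11710 to 12500 CPM in the other 3. Among laminin chains Lama5 read 370 TPM, Lamb2 148 TPM and Lamc1 210 TPM, which together form the adult glomerular laminin. Lamb1, the beta chain of the laminin of the immature membrane, read 219 TPM. Agrin (Agrn) read 491 TPM and Hspg2 443 TPM. Nidogen was almost all of one kind, with Nid2 at 336 TPM and Nid1 at 0.44 TPM. The laminin receptor integrin chains Itga3 and Itgb1 read 363 and 1478 TPM.

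Among the type IV collagen chains given here, Col4a1, Col4a2 and Col4a5 were high, and Col4a3 and Col4a4 were low. Early glomerular basement membrane holds chains alpha1 and alpha2, and the mature membrane made by podocytes holds alpha3, alpha4 and alpha5. Col4a1 and Col4a2 stood at 1071 and 1233 TPM. Col4a5 stood at 275 TPM, Col4a4 at 1.36 TPM and Col4a3 at 0.26 TPM. In CPM, Col4a3 read 0.769 (interval 0.435 to 1.26) in sh-NC, and 0.212, 1.01 and 0.778 elsewhere. Col4a4 read 4.28 CPM in sh-NC and 1.33, 4.27 and 3.54 CPM in the others. Both were lowest in sh-NC/HG.

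Col4a1 and Col4a2 lie head to head on chromosome 8, and read 1071 and 1233 TPM in sh-NC. In CPM, Col4a1 read 2371 CPM in sh-NC and 1620, 1927 and 2027 CPM in the others, and Col4a2 read 2420 CPM and then 1608, 2102 and 2159 CPM. Their annotated RefSeq starts are 21 bases apart, at 11312826 for Col4a1 on the minus strand and 11312805 for Col4a2 on the plus strand of GRCm38.p6. The stretch around the CCAAT box (capitals) lies upstream of the start of Col4a2 and downstream of the start of Col4a1, outside the bases between the starts. It is at chr8:11312765-11312794 on the plus strand.
Col4a2: ggagctccCCAATttgttggcgctgccccc

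Nephrin was near 0 while scaffold and cytoskeletal partners of the slit diaphragm were high. Of the 14 genes of the slit diaphragm list, 9 (64.3%) were at or above 1 CPM, with a median of 6.37 TPM. For all protein-coding genes these values were 53.0% and 2.85 TPM. Nephrin (Nphs1) read 0.434 CPM (interval 0.196 to 0.832) in sh-NC and 0.191, 0.227 and 0.203 CPM in the others. The channel Trpc6 was under the floor of 0.149 CPM, at 0.062 CPM, and Kirrel2 and Cldn5 were at 0. The nephrin-like adhesion molecule Kirrel read 881 CPM (398 TPM) and 688 to 785 CPM in the other libraries. The protocadherin Fat1 read 1145 CPM (247 TPM), the adaptor Cd2ap 291 CPM (61.8 TPM), the junction scaffold Tjp1 92.0 TPM and the scaffold Iqgap1 91.5 TPM. Magi1 and Plce1 were lower, at 13.4 and 9.88 TPM, Kirrel3 was at 2.86 TPM and Magi2 at 0.42 TPM.

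Of 25 podocyte cytoskeleton and surface genes, 19 (76.0%) were at or above 1 CPM, with a median of 32.0 TPM. All protein-coding genes stood at 53.0% and 2.85 TPM. Synaptopodin (Synpo), an actin-binding protein of foot processes, read 215 CPM (76.1 TPM) in sh-NC and 244, 174 and 183 CPM in the others. The alpha-actinin Actn4 read 403 TPM, the GTPase inhibitor Arhgdia 698 TPM, the formin Inf2 166 TPM and the myosin Myo1e 113 TPM. The surface peptidase Mme read 207 TPM, the intermediate filament nestin (Nes) 249 TPM and the integrin ligand nephronectin (Npnt) 315 TPM. Podocalyxin (Podxl), the main sialoprotein of the apical surface, was lower, at 11.4 TPM. Its CPM was 18.6 (interval 16.8 to 20.6) in sh-NC and 23.5, 10.2 and 15.3 in the others. The phosphatase Ptpro, Dach1 and Dpp4 were at 0, and Pdpn was under the floor at 0.0496 CPM.

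Among 9 podocyte transcription factors, 7 (77.8%) were at or above 1 CPM, and Wt1, Lmx1b and Tcf21 were low. The share was 69.1% of all transcription factors and 53.0% of protein-coding genes. Of the 9, 3 were at or above 10 CPM, and 5 reached 1 CPM in each of the other libraries. Wt1 read 1.15 CPM (interval 0.734 to 1.73) in sh-NC and 0.625, 0.971 and 0.969 CPM in the others, so only sh-NC lay above 1 CPM, by less than its counting interval. Lmx1b was under the floor at 0.112 CPM and at 0 in the other 3 libraries. Tcf21 was at 0 in all 4. The forkhead factors Foxc1 and Foxd1, which act in kidney mesenchyme and early podocytes, were higher at 72.0 and 62.9 TPM, and Creb3l2 stood at 46.7 TPM. Against the podocyte label, the defining genes Nphs1, Ptpro and Lmx1b, and also Tcf21, lay below 1 CPM in all 4 libraries.

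**Figure D2:**
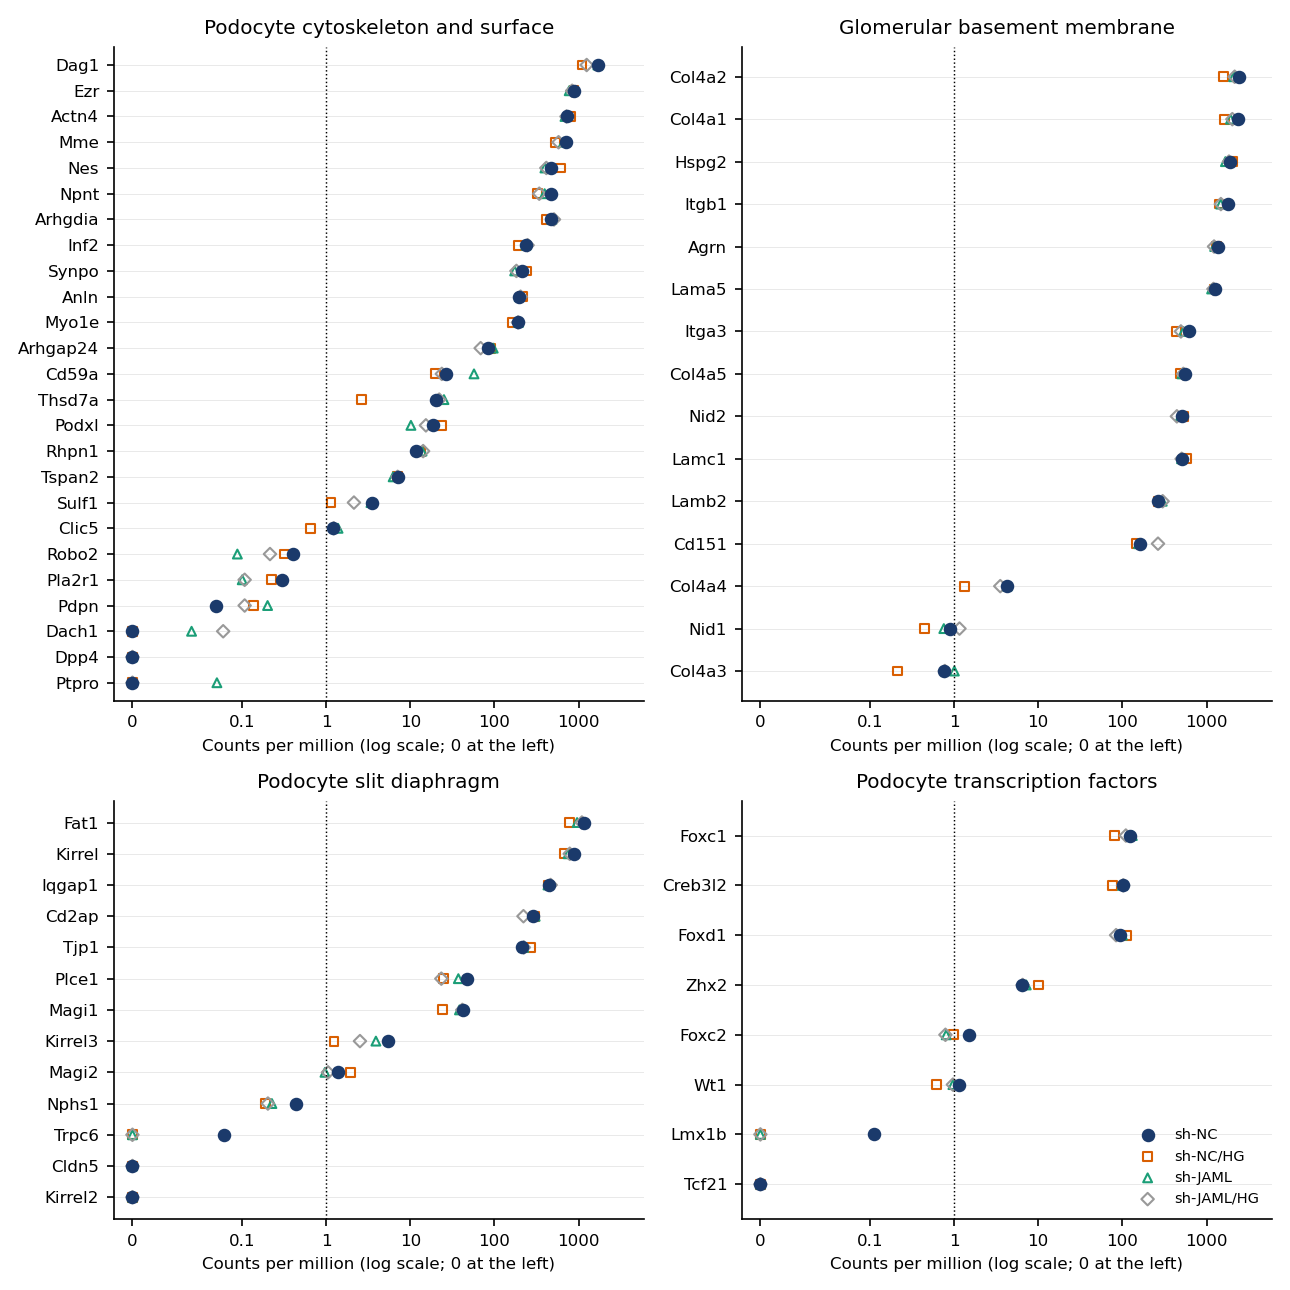
Podocyte and basement membrane genes in the 4 libraries, in CPM on a log scale with 0 drawn at the left edge; filled circles are sh-NC, open symbols the other libraries, 1 library each, and the dotted line marks 1 CPM. Dag1 tops the cytoskeleton list at 1713 CPM, and Nphs1, Ptpro, Lmx1b and Tcf21 lie left of the line in all 4 libraries.

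Markers of parietal cells and of the early nephron were present. Parietal epithelial cells line Bowman's capsule and share a lineage with podocytes. All 3 genes chosen as defining them were above 1 CPM, with Pax2 at 239 TPM, the adhesion molecule Ncam1 at 38.5 TPM and the claudin Cldn1 at 6.31 TPM. Pax2 read 384 CPM in sh-NC and 326, 409 and 298 CPM in the others. Of the 10 parietal genes, 8 (80.0%) reached 1 CPM, against 53.0% of protein-coding genes, and Akap12 was the highest at 561 TPM. Of 11 early nephron and renal epithelial genes, 9 (81.8%) reached 1 CPM, among them Pax8 at 105 TPM and the homeodomain factor Lhx1 at 7.07 TPM. The kidney cadherin Cdh16 read 492 TPM and Cdh6 167 TPM. In CPM, Cdh6 read 446 in sh-NC and 109, 455 and 403 in the others, lowest in sh-NC/HG.

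Progenitor and tubule segment markers were detected in part, each list at a smaller share than the 53.0% of protein-coding genes. Among nephron progenitor genes Six2, Osr1 and Meox1 were at 0, Cited1 read 1.18 CPM, and Eya1 and Sall1 read 27.0 and 48.5 CPM. The proximal tubule endocytic receptor megalin (Lrp2) read 295 CPM (59.6 TPM), its adaptor Dab2 318 CPM (146 TPM) and the water channel Aqp1 289 CPM (370.5 TPM). Its partner cubilin (Cubn) was at 1.87 CPM, the phosphate transporter Slc34a1 was at 0, and 6 of 20 proximal tubule genes reached 1 CPM. Aqp1 read 291, 284 and 96.1 CPM in the other libraries. Of 13 loop and distal genes 3 reached 1 CPM, and Umod, Slc12a1 and Slc12a3 were at 0. Of 18 collecting duct genes 5 did, with Aqp2 at 0.0993 CPM, under the floor.

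More of the mesenchymal list than of the epithelial list was detected, on either side of the 53.0% of protein-coding genes. Of 16 mesenchymal genes, 15 (93.8%) were at or above 1 CPM, with a median of 50.4 TPM, and of 26 epithelial genes 7 (26.9%) were, with a median of 0.29 TPM. Vimentin (Vim) read 727 TPM and the repressor Zeb1 17.9 TPM. N-cadherin (Cdh2) read 157 TPM, below the kidney cadherin Cdh16 given above. E-cadherin (Cdh1) and Epcam were at 0, and the simple keratins Krt8 and Krt18 were at 0.434 and 0.0496 CPM. The protease inhibitor Spint2 was the highest epithelial gene at 63.0 TPM, ahead of the junction protein Cgn and the ETS factor Elf3, the latter at 21.7 TPM. Vim read 1023 CPM in sh-NC and 633, 968 and 975 CPM in the others.

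Contractile genes were split. Smooth muscle actin (Acta2) read 1620 TPM and transgelin (Tagln) 1447 TPM, but 67.9% of the exon bases of Tagln are shared with another gene. In CPM, Acta2 read 1055 in sh-NC and 669, 738 and 751 in the others, and Tagln 853, 621, 543 and 572, so both were highest in sh-NC. The smooth muscle myosin Myh11 read 0.323 CPM, Myocd was at 0, and calponin Cnn1 read 2.25 CPM. Of 14 smooth muscle genes 7 were at or above 1 CPM, a share near the 53.0% of protein-coding genes. Among 15 mesangial, pericyte and renin cell genes 4 were, led by the receptor Pdgfrb at 88.6 TPM and Mcam at 46.6 TPM, while Itga8 and Ren1 were at 0. Among 20 fibroblast and stromal genes 8 were, including Fn1, Sparc at 1372 TPM and Vim. Both the mesangial and the fibroblast shares were below 53.0%. Collagen Col1a1 read 16.2 CPM, Col1a2 0.273 CPM and Col3a1 0.484 CPM, Dcn 0.422 CPM, and Pdgfra was at 0.

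Each list of other cells given here had a smaller share at or above 1 CPM than the 53.0% of protein-coding genes. Single members such as Spp1, Perp and Cd14 stood well above the 2.85 TPM of the median protein-coding gene. No member of the adipocyte list (12 genes) or hepatocyte list (10 genes) reached 1 CPM. Of 17 endothelial genes 5 did, the highest being Ehd3 at 10.4 TPM, while Pecam1 read 0.0248 CPM, Cdh5 0.062 CPM and Kdr was at 0. Of 22 leukocyte genes 4 did, with Cd14 at 59.3 TPM, Csf1r at 35.8 TPM, Ptprc at 0.31 CPM and Cd3e at 0. Of 18 neuronal genes 3 did, led by Uchl1 at 45.4 TPM. Glial genes numbered 4 of 14, skeletal and cardiac muscle genes 3 of 16, bone and cartilage genes 4 of 13, keratinocyte and melanocyte genes 5 of 13, and pluripotent and germ cell genes 1 of 12. Their highest members were Cnp at 19.4 TPM, Acta1 at 4.79 TPM, Spp1 at 131 TPM, Perp at 66.3 TPM and Nanog at 2.11 TPM. Of the 27 lineage lists, 3 had all of their defining markers at or above 1 CPM (parietal epithelium, early nephron and mesenchymal core), and 9 had none. Over all lists 153 of 393 marker genes (38.9%) were detected, below the 53.0% of protein-coding genes. Xist read 804 CPM, and Sry, Ddx3y and Kdm5d were at 0.

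**Figure D3:**
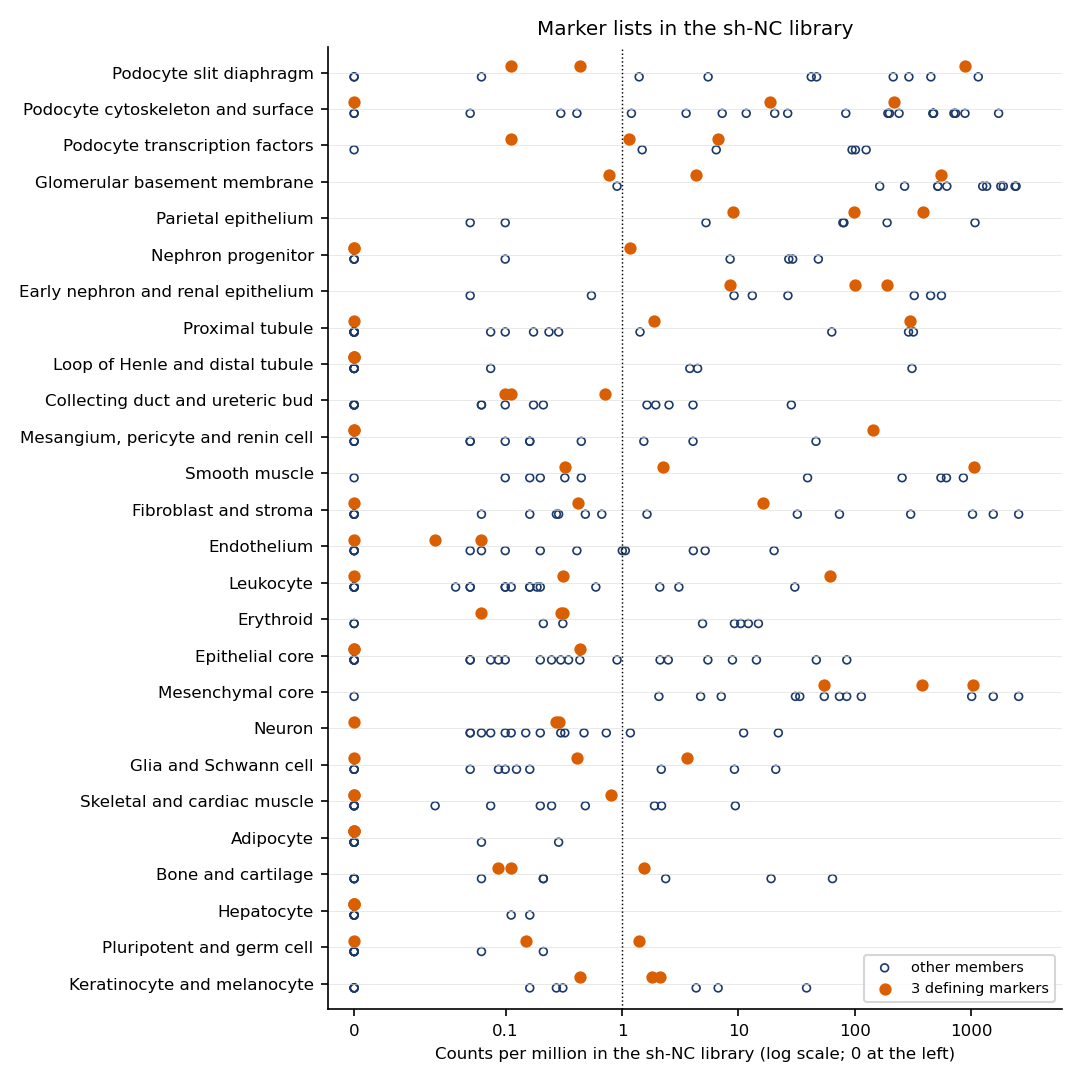
Level of every member of 26 marker lists in the sh-NC library, in CPM on a log scale with 0 drawn at the left edge; filled orange points are the 3 defining markers, open blue points the other members, and the dotted line marks 1 CPM. Parietal epithelium, early nephron and mesenchymal core have all 3 defining markers right of the line.

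Transcription factors were widely detected. Of 1123 factor genes, 776 (69.1%) were at or above 1 CPM, with a median of 7.1 TPM, against 53.0% and 2.85 TPM for all protein-coding genes, and together they held 3.31% of the count. None was among the 100 highest genes by CPM, and 15 were among the 1000 highest. The AP-1 member Jund was the highest at 914 TPM, followed by the SOX factor Sox4 at 357 TPM, the stress factor Atf4 at 327 TPM, the E2F partner Tfdp1 at 317 TPM and the sterol regulator Srebf2 at 275 TPM. Srebf2 read 586 CPM in sh-NC and 803, 510 and 513 CPM in the others. Next came Pax2, the tendon factor Scx at 227 TPM, Hoxb9 at 214 TPM, the immediate early factor Egr1 at 201 TPM and Junb at 194 TPM. Of the remaining highest 20, the NF-kB subunits Rela and Nfkb2 read 177 and 135 TPM, Trp53 163 TPM, Klf6 152 TPM and the TGF-beta effector Smad3 133 TPM. Nr2f6 read 168 TPM. Of the exon bases of Jund 52.6%, of Sox4 54.6% and of Nr2f6 54.4% are shared with another gene, so their levels are uncertain.

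Families differed in how many members were detected, against 69.1% of all factor genes and 53.0% of protein-coding genes. STAT, IRF, NF-kB and NFAT factors were detected in 23 of 26, SMAD, TEAD, SRF, MEF2, RUNX and RBPJ factors in 19 of 22, p53, E2F, MYB and cell cycle factors in 15 of 18, and leucine zipper factors in 42 of 52. Of the ZFP, ZBTB, ZSCAN and PRDM zinc fingers 390 of 472 were, led by Zfp91 at 163 TPM and Zfp703 at 120 TPM. Of other zinc fingers 53 of 83 were, led by Egr1 and Maz at 156 TPM, and of ETS factors 17 of 26, led by Erf at 91.5 TPM. Homeodomain and POU factors were detected in 81 of 167, forkhead factors in 21 of 44, helix-loop-helix factors in 41 of 77, nuclear receptors in 23 of 47 and SOX and TCF factors in 13 of 25. The remaining families had 39 of 65 detected, led by the epithelial factor Tfcp2l1 at 129 TPM.

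HOX genes were uneven in level. Hoxb9 and Hoxc10 read 214 and 142 TPM and Hoxa10 76.4 TPM, while Hoxa11 and Hoxd11, which act in the kidney's metanephric mesenchyme, were at 0 in all 4 libraries. The forkhead factor Foxf1 read 86.5 TPM, Twist1 113 TPM and Tbx18, a ureteral and stromal factor, 48.7 TPM. Gata3 read 3.45 TPM.

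**Figure D4:**
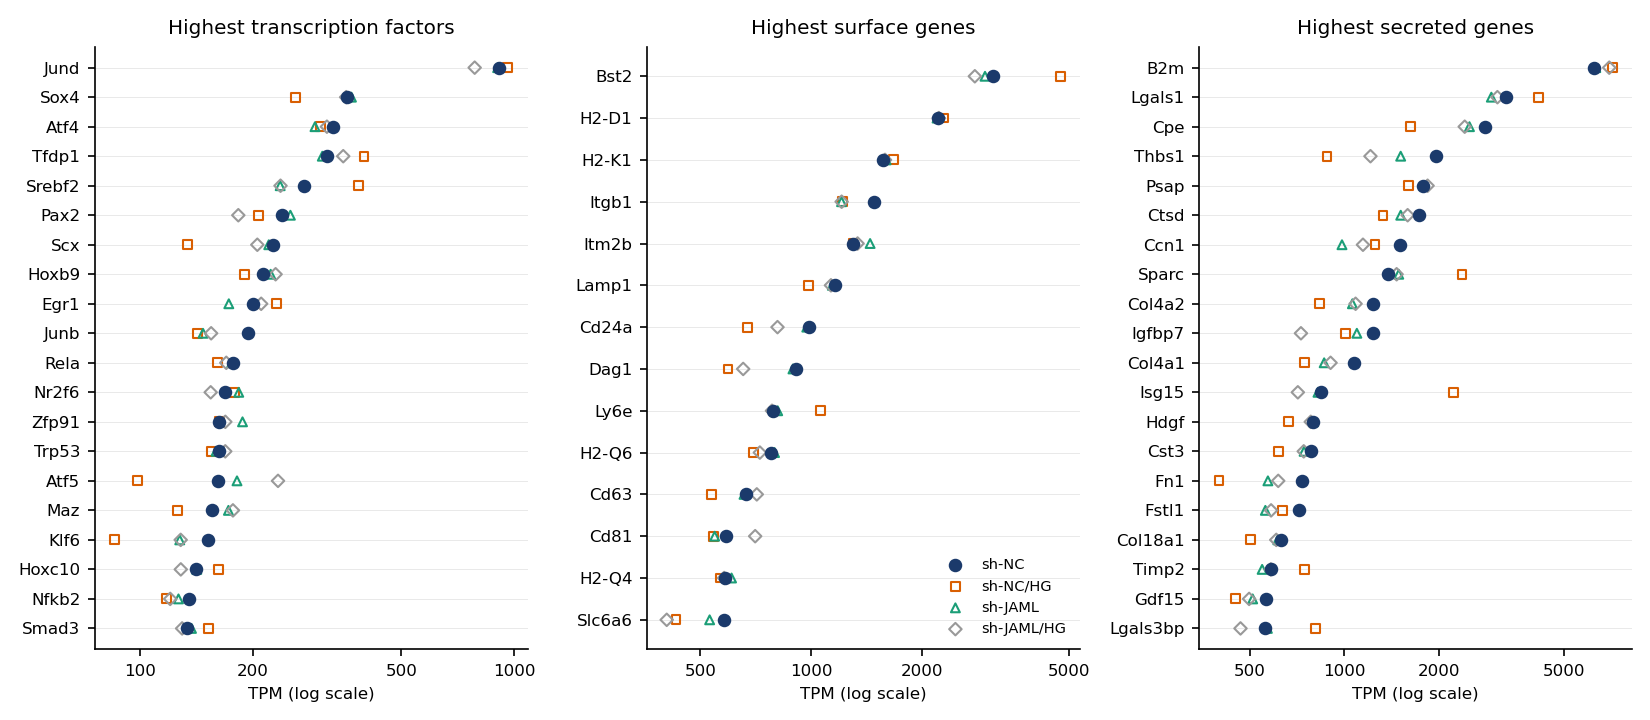
Genes among the 20 highest transcription factors, 15 highest surface genes and 20 highest secreted genes of the sh-NC library, in TPM on log scales; filled circles are sh-NC and open symbols the other libraries, 1 library each. Jund leads the factors at 914 TPM, Bst2 the surface genes at 3102 TPM and B2m the secreted genes at 6232 TPM.

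Of 815 surface genes, 408 (50.1%) were at or above 1 CPM, near the 53.0% of protein-coding genes, and they held 5.81% of the count. The interferon-induced antiviral protein Bst2 was the highest at 3102 TPM, followed by the class I genes. Bst2 read 831 CPM in sh-NC and 1243, 800 and 753 CPM in the others. Itgb1 followed at 1478 TPM, then the membrane protein Itm2b at 1298 TPM, the lysosomal protein Lamp1 at 1156 TPM, Cd24a at 984 TPM and Dag1 at 909 TPM. Tetraspanins Cd63 and Cd81 read 664 and 587 TPM, and the taurine transporter Slc6a6 578 TPM. MHC genes and T cell ligands were detected in 24 of 35.

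Adhesion and growth factor receptors varied by family. Integrins were detected in 14 of 26 (53.8%), near the 53.0% of protein-coding genes, with Itgb5 at 471 TPM after Itgb1. Surface proteoglycans were detected in 11 of 14, led by the glypican Gpc4 at 325 TPM and the syndecan Sdc4 at 245 TPM. Cadherins were detected in 18 of 53, and claudins and junction molecules in 20 of 50, led by Cxadr at 188 TPM. Receptor tyrosine kinases were detected in 23 of 41 (56.1%), also near 53.0%. They were led by the Gas6 receptor Axl at 467 TPM and the collagen receptor Ddr1 at 228 TPM. The hepatocyte growth factor receptor Met read 153 TPM and Egfr 112 TPM. Ephrins and Eph receptors were detected in 15 of 22, led by Epha2 at 178 TPM and its ligand Efna1 at 141 TPM. Efna1 read 76.5 CPM in sh-NC and 23.0, 27.9 and 30.9 CPM in the others.

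Signalling receptors followed. TGF-beta family receptors were detected in 11 of 16, led by Tgfbr2 at 182 TPM and Bmpr1a at 92.7 TPM, and Wnt and Notch receptors and ligands in 24 of 32, led by Fzd6 at 238 TPM and Jag1 at 187 TPM. Plexins, neuropilins and guidance receptors were detected in 21 of 34, led by Plxnb2 at 481 TPM and Plxna1 at 169 TPM. Cytokine and innate receptors were detected in 43 of 87, led by Il17rc at 265 TPM and the lymphotoxin receptor Ltbr at 232 TPM. G protein-coupled receptors were the sparsest surface list, with 48 of 185 (25.9%), led by the adhesion receptors Adgrg1 at 439 TPM and Adgra2 at 325 TPM. Adgrg1 read 706 CPM in sh-NC and 259, 570 and 660 CPM in the others. Tetraspanins were detected in 20 of 29 and membrane transporters in 54 of 82. Scavenger and endocytic receptors were detected in 19 of 33, and CD and adhesion antigens in 45 of 78. For comparison, 50.1% of all surface genes and 53.0% of protein-coding genes were detected. The cytokine, scavenger and CD lists lay near these shares. G protein-coupled receptors lay well below them, and the other lists of this paragraph above.

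Of 501 secreted genes, 226 (45.1%) were at or above 1 CPM, below the 53.0% of protein-coding genes, and they held 5.1% of the count. The most abundant after B2m were Lgals1, Cpe at 2803 TPM, Thbs1 at 1959 TPM, the lysosomal proteins prosaposin (Psap) at 1780 TPM and cathepsin D (Ctsd) at 1721 TPM, and the matricellular protein Ccn1 at 1504 TPM. Of the exon bases of Ctsd, 34.4% are shared with another gene. Matrix glycoproteins were detected in 29 of 54, led by Thbs1 and Sparc, collagens in 18 of 25 and secreted proteoglycans in 4 of 19. Of CCN and IGF-binding proteins 5 of 12 were detected, with Ccn2 at 397 TPM. Ccn1 read 901 CPM in sh-NC and 735, 594 and 695 CPM in the others, and Ccn2 337, 136, 185 and 184 CPM. Both were highest in sh-NC.

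Growth factors were detected in 32 of 52 (61.5%), against 53.0% of protein-coding genes and 45.1% of all secreted genes. They were led by Hdgf at 795 TPM and progranulin (Grn) at 524 TPM. The macrophage factor Csf1 read 400 TPM and Pdgfb 180 TPM. The podocyte product Vegfa stood at 29.2 TPM. TGF-beta family ligands and antagonists were detected in 16 of 38, led by the follistatin-like Fstl1 at 714 TPM and the stress cytokine Gdf15 at 563 TPM, and Wnt, hedgehog and guidance ligands in 18 of 49, led by netrin Ntn4 at 287 TPM and Dkk3 at 236 TPM. Proteases were detected in 29 of 51 (56.9%), near the 53.0% of protein-coding genes. Their inhibitors were detected in 12 of 30, led by cystatin Cst3 at 781 TPM and Timp2 at 586 TPM. Lipid, hormone and other carriers were detected in 26 of 57.

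Among immune ligands, each list given here had a smaller share detected than the 53.0% of protein-coding genes. Chemokines were detected in 13 of 33, led by Ccl2 at 308 TPM and Cxcl10 at 304 TPM. In CPM, Ccl2 read 104 in sh-NC and 186, 70.0 and 53.1 in the others, and Cxcl10 read 203, 280, 162 and 118. Both were highest in sh-NC/HG. Cytokines were detected in 15 of 47, led by Clcf1 at 56.0 TPM and Cntf at 54.8 TPM, of whose exon bases 78.9% are shared with another gene. Complement and acute phase genes were detected in 11 of 36, led after B2m by the lectin pathway protease Masp1 at 63.9 TPM. The interferon-stimulated ubiquitin-like protein Isg15 read 842 TPM, and its CPM was 189 in sh-NC and 489, 187 and 162 in the others.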

How the data were processed

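RNA was sequenced from 4 cultures, 1 library each. Per the labels, libraries followed the TruSeq RNA guide from total RNA. CASAVA 1.8, TopHat2 2.0.6 and the mouse build mm10 are named in the submitters' processing notes. From the aligned reads the authors made an estimated count (expected count) for each Ensembl gene, deposited unscaled. The counting tool is not given in the sources used here, nor is its annotation. Columns were mapped by name: the control column to sh-NC, and the column for high glucose to sh-NC/HG. No column of another sample was present (0), and 1 line without a gene was left out.

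CPM used the total over genes, and TPM the union of exon bases in GENCODE release M21, for genes of at least 200 exon bases. The annotation matched 55394 genes and left 999 unmatched, with 0.0332% of the sh-NC count. Counting intervals took 4 units as 1 fragment. Calculations used Python 3.11.15, numpy 2.4.6, pandas 2.3.3, scipy 1.17.1, Biopython 1.88, matplotlib 3.10.9 and R 4.3.3 with edgeR 4.0.16 (TMM factors only). Levels and intervals were tested on fragments simulated with Poisson counting and 4 units a fragment, so that reading was not itself tested. The first criterion, on the recovery of single genes, was missed. It was replaced by the median error and the interval coverage. Detection means at least 1 CPM.

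Named genes were the 30 highest by CPM, the 20 highest by TPM, the 5 highest noncoding, the 20 highest transcription factors, 15 surface and 20 secreted genes by TPM, the 2 highest of each family, and the 3 defining and 3 highest genes of each lineage list. A few genes taken by the rule are not reported here. Other named members of the lists were chosen after their values were seen. The members and lists were chosen with earlier results of these data known, from textbook markers and symbol patterns. Alternatives were a floor of 3 fragments, 10 CPM, TPM, genes with little shared exon, totals without mitochondrial genes, TMM scaling and another transcript length, the last chosen after seeing the data.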

Additional observations from a re-analysis of the deposited data

Results flagged for a closer look

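The highest gene of the table without a match in the annotation, ENSMUSG00000095041, read 196 CPM in the sh-NC library, above the floor of 3 fragments, 0.149 CPM. It is listed here because it stood outside every comparison of the report. Its level in the glucose-exposed control library was 217 CPM, and 236 and 221 CPM in the libraries with the Jaml hairpin, without and with glucose, and no gene name was assigned to it.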

How the results depend on the processing

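The counts of detected protein-coding genes, transcription factors, surface genes and secreted genes stayed within 1.5 times their values under all 6 alternatives tried for them (a floor of 3 fragments, 10 CPM, 1 TPM, genes with under 10% shared exon bases, totals without mitochondrial genes, TMM scaling). Detected lineage markers fell from 153 to 98 at 10 CPM. Ranking by TPM kept 24 of the 50 highest genes. The 100 highest genes held 19.4% of TPM, and 11.8% of the count without mitochondrial genes. Mitochondrial genes took 7.08% of TPM, and ribosomal protein genes 6.28% of TPM and 3.02% of the count without mitochondrial genes. With the longest basic transcript as gene length, 15 of the 20 highest transcription factors, 14 of the 15 surface genes and 18 of the 20 secreted genes were shared. Of the 27 lineage lists, the number of detected members moved past 1.5 times in 14 at 10 CPM, 13 at the floor and 2 without shared exons. The cause was not tested. With 1 library a group, no replicate could be left out. No paired analysis was possible because the results describe the levels of 1 library and come from no test. Levels near 0.149 CPM rest on 3 fragments.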

Other observations

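Genes of DNA replication and mitosis were detected throughout. The following lists were chosen after their values were seen. All 28 genes of DNA replication and mitosis were at or above 10 CPM in the sh-NC library, against 9608 of 21903 protein-coding genes. The 28 genes had a median of 131 CPM and held 0.482% of the count. The proliferation antigen Mki67 read 289 CPM in sh-NC and 428, 319 and 352 CPM in the others, ordered as above. The topoisomerase Top2a read 303, 467, 318 and 355 CPM in the same order. Cyclin Ccna2 read 169 CPM in sh-NC, Cdk1 101 CPM, the replication clamp Pcna 423 CPM and the helicase subunit Mcm2 401 CPM. Of 7 cell cycle inhibitors, 6 (85.7%) reached 1 CPM, against 53.0% of protein-coding genes. The p53 target Cdkn1a read 701 CPM and the INK4A/ARF locus Cdkn2a 322 CPM, while Cdkn1c, the inhibitor found in mature podocytes, read 0.596 CPM (interval 0.308 to 1.04), with 30.6% of its exon bases shared with another gene. Summed over the 28 genes the level was 4819 CPM in sh-NC and 5007 to 5777 CPM in the other 3 libraries. Whether all cells or a share of them cycle cannot be told from bulk RNA.

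The globin transcripts given here read higher in the 2 libraries without added glucose than in the glucose-exposed ones. The pattern was noticed in the data, and with 1 library a group no difference was tested. The 2 libraries without added glucose held Hba-a1 at 12.1 and 13.6 CPM (sh-NC first), and the glucose-exposed ones at 0.297 and 0.203 CPM. Hbb-bs read 10.4 and 11.9 CPM in the first pair and 0.0318 and 0 CPM in the second. Hba-a2 read 9.23 and 9.83 CPM in the first pair and 0.138 and 0.0479 CPM in the second, and Hbb-bt 4.91 and 6.44 CPM in the first and 0 in the second. The erythroid markers Klf1 and Alas2 were low in sh-NC, at 0.31 and 0.298 CPM, and Epor read 14.8 CPM. The source of the globin counts was not tested. Hba-a1 and Hba-a2 are close copies, so their separate levels are uncertain.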
